A study of Mus musculus with 6 samples.

Results

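The lysyl oxidase family comprises 5 genes in the mouse, Lox, Loxl1, Loxl2, Loxl3 and Loxl4, and all 5 were found by symbol among the 36845 distinct symbols of the deposited expression table. The level of each gene was compared between control and siTet1/Tet2 bone marrow mesenchymal stem cells (BMMSCs), the adherent cells grown out of marrow flushed from C57BL/6 femurs and tibias. The siTet1/Tet2 group (3 libraries) had received siRNAs against Tet1 and Tet2 together, the dioxygenases that oxidize methylated cytosine, and the control group (3 libraries) a non-targeting siRNA according to the labels, although the sequencing methods call it vehicle. The question was how loss of both enzymes changes gene expression in these cells. The labels give passage 2 and the methods passage one, and the labels give no age and no number of mice. Nothing in the labels says that the 3 libraries of a group came from separate cultures or animals, so every p-value measures only the spread between these libraries.

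Lysyl oxidases are secreted, copper-dependent amine oxidases. They convert lysines and hydroxylysines of collagen and elastin to aldehydes, which then condense into the covalent cross-links that give bone, skin and vessel wall their tensile strength. Lox and Loxl1 are made as proenzymes that Bmp1-type proteinases cleave, whereas Loxl2, Loxl3 and Loxl4 carry scavenger receptor domains before the shared catalytic domain.

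On GRCm38, in the GENCODE M21 annotation, Loxl1 spans chr9:58287738-58313186 on the minus strand in 7 exons, and Loxl2 spans chr14:69609068-69695834 on the plus strand in 14 exons. Loxl3 spans chr6:83034173-83052562 on the plus strand in 14 exons and Loxl4 spans chr19:42593982-42612813 on the minus strand in 15 exons. The coding length of the longest coding transcript was 1821 bases in Loxl1, 2328 in Loxl2, 2262 in Loxl3 and 2271 in Loxl4. Because the genes are related, a stretch of 60 coding bases from the catalytic domain is shown for 4 members, to let the reader see how far reads can tell them apart. Capitals mark the 40 positions that hold the same base in the 4 printed genes. The stretches lie in exon 4 of 7 of Loxl1 (chr9:58293619-58293678, minus strand), exon 11 of 14 of Loxl2 (chr14:69689076-69689135, plus strand), exon 11 of 14 of Loxl3 (chr6:83050164-83050223, plus strand) and exon 12 of 15 of Loxl4 (chr19:42598709-42598768, minus strand), and each is written 5′ to 3′ on the strand of its gene.
Loxl1: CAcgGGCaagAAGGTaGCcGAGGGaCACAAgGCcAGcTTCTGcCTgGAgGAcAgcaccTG
Loxl2: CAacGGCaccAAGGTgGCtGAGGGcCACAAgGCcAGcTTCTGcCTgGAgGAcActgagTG
Loxl3: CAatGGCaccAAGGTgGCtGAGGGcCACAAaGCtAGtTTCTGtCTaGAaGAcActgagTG
Loxl4: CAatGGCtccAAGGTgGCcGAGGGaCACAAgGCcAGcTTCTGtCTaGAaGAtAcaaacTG
Within this stretch Loxl2 and Loxl3 were alike at 53 positions and Loxl1 and Loxl3 at 42. Across the whole transcripts, no run of 100 bases, the read length, was shared by any pair of the 5 genes. The longest shared run was 32 bases, between Lox and Loxl1. The mRNAs are thus distinct at the length of a read.

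The knockdown was checked in the Tet genes. Control libraries held 2.57, 4.08 and 3.71 RPKM of Tet2 and siTet1/Tet2 libraries 0.358, 0.238 and 0.202 RPKM, and the gene passed the limma test (log2 fold change -1.80, adjusted p = 2.8832e-05). Tet1 was near the lowest listed value in both groups, 0.032 to 0.098 RPKM in control and 0.001 to 0.01 RPKM in siTet1/Tet2, and was not tested. Tet3 did not pass (adjusted p = 0.508). RPKM counts the reads on a gene, corrected for gene length and library size. The table gives no read totals, and a depth estimated from the steps of low values was 32400000 to 38700000 reads per library. Of the 13249 genes that averaged 0.1 RPKM or more, 5894 had an adjusted p under 0.05 (called passed here), 3945 of them lower in siTet1/Tet2. The split was 2927 of 5808 after median ratio scaling and 2622 of 6221 after quantile normalization. Of 12 stromal markers 9 were tested, 6 passed lower and Vcam1 passed higher, against 29.8% of all tested genes lower and 14.7% higher. The summed RPKM of the list was 263 to 296 in control and 91.6 to 107 in siTet1/Tet2. Of the list, Thy1, Lepr and Lum were near the lowest listed value in both groups. Of 12 macrophage and monocyte markers, all tested, 7 passed higher and 2 lower, against 14.7% of all tested genes higher and 29.8% lower. Their summed RPKM was 6381 to 8528 in control and 14031 to 17118 in siTet1/Tet2. Lyz2 alone made up most of that sum in each group, with means of 4439 and 11321 RPKM. The 5 endothelial markers, with Tek near the lowest value, summed to 2.42 to 2.88 RPKM in control and 1.35 to 1.46 RPKM in siTet1/Tet2.

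All 5 lysyl oxidase genes were expressed at lower levels in siTet1/Tet2 BMMSCs than in control BMMSCs, and all 5 passed the limma test on RPKM as deposited and after 3 other scalings of the libraries. Without the filter on low values 3 of the 5 passed, and Lox (adjusted p = 0.0556) and Loxl4 (adjusted p = 0.0862) did not. When libraries were instead scaled to the stromal markers, none of the 5 passed as lower and the sign of Lox and of Loxl4 turned. That scaling moved the median log2 fold change of all tested genes to 1.34, and the 5 members lay at -0.36 to 0.25. Of the 13249 tested genes 12030 then passed, 418 of them lower. On RPKM as deposited, the share of all tested genes that passed lower was 29.8%. On the log2(RPKM + 1) scale 4 of the 5 also exceeded a fold change of 2 with an unadjusted p under 0.05 (called altered here), against 5.62% of all tested genes altered lower. The median log2 fold change of the family was -1.68 and that of all tested genes was -0.09. In each of the 5 genes every siTet1/Tet2 library lay below every control library, which held for 35.9% of tested genes. In these bulk libraries, fewer cells of a type and less RNA per cell cannot be told apart, and what part the stromal and macrophage marker levels have in the change of the family was not tested.

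Lox, the founding member and the main cross-linking enzyme of fibrillar collagen, was the most abundant of the family. It lies on chromosome 18 (chr18:52516067-52529867, minus strand) in 7 exons, with a coding length of 1233 bases. Its level was 168, 178 and 223 RPKM in control and 47.3, 60.9 and 97.6 RPKM in siTet1/Tet2. The lowest control library was well above the highest siTet1/Tet2 library, which was replicate 3. The mean fell from 189 ± 29.5 to 68.6 ± 26.0 RPKM (SD, n = 3 in each group), to 36.2% ± 8.57 (SE) of control. The log2 fold change was -1.51 with an SE of 0.23 and a 95% interval from -2.04 to -0.97 (limma, adjusted p = 0.00116).

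Loxl1, the relative best known for elastin cross-linking, stood at 27.6, 21.7 and 26.1 RPKM in control. In the siTet1/Tet2 libraries it stood at 3.99, 6.28 and 7.87 RPKM. The groups were far apart, and replicate 3 was again the highest of the siRNA group. Its mean of 25.1 ± 3.05 RPKM in control and 6.05 ± 1.95 RPKM in siTet1/Tet2 (SD, n = 3) gave 24.1% ± 4.79 (SE) of control, the lowest remaining percentage among the 5 genes. The log2 fold change was -1.92 with an SE of 0.19 and an interval from -2.37 to -1.48 (limma, adjusted p = 0.000125).

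Loxl2, which cross-links the collagen IV of basement membranes, was measured at 39.1, 36.8 and 46.1 RPKM in control and at 7.04, 9.43 and 14.2 RPKM in siTet1/Tet2. No siTet1/Tet2 library approached the control range. The mean went from 40.7 ± 4.81 to 10.2 ± 3.63 RPKM (SD, n = 3), or 25.1% ± 5.43 (SE) of control. The log2 fold change was -1.94 with an SE of 0.21 and an interval from -2.41 to -1.47 (limma, adjusted p = 0.000157).

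Loxl3, a close relative of Loxl2 that is needed for palate and spine development in mice, was the second most abundant member. Control libraries held 68.5, 65.1 and 70.9 RPKM and siTet1/Tet2 libraries 14.9, 20.4 and 28.5 RPKM. The control libraries were tight, with a coefficient of variation of 4.28%, while that of the siRNA group was 32.1%. The mean fell from 68.2 ± 2.92 to 21.3 ± 6.81 RPKM (SD, n = 3), to 31.2% ± 5.82 (SE) of control. The log2 fold change was -1.68 with an SE of 0.19 and an interval from -2.11 to -1.25 (limma, adjusted p = 0.000206). Loxl3 shares 535 exon bases with Htra2, a mitochondrial protease gene on the opposite strand. Htra2 stood at 25.2 to 27.4 RPKM in control and 23.3 to 24.2 RPKM in siTet1/Tet2, and since the use of strand in counting is not stated, reads of the shared bases cannot be assigned to either gene. The other overlaps were 301 bases of Loxl2 with the antisense gene Gm27177 and 7 with Mir6950, both listed at 0.001 RPKM in all 6 libraries, and 30 bases of Lox with an antisense transcript that has no row in the table.

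Loxl4 was scarce. It stood at 1.545, 1.20 and 1.58 RPKM in control and at 0.506, 0.499 and 0.941 RPKM in siTet1/Tet2. In control, 80.7% of tested genes had a higher mean than Loxl4. The groups did not overlap, but the gap between the lowest control and the highest siTet1/Tet2 library was the narrowest of the family on the RPKM scale. The mean was 1.44 ± 0.211 RPKM in control and 0.649 ± 0.253 RPKM in siTet1/Tet2 (SD, n = 3), or 45.0% ± 10.8 (SE) of control. Its log2 fold change of -0.57 (SE 0.12, interval -0.85 to -0.30, limma adjusted p = 0.00532) passed but was under the fold limit, on a scale whose pseudocount of 1 is close to the level of the gene. The value was -0.35 after quantile normalization, and -1.08 and -1.19 with pseudocounts of 0.1 and 0.01, and passed each time. The ratio of the mean RPKM values was 2.22-fold. By the depth estimate, 149 to 218 reads lay behind each control value of Loxl4 and 72 to 125 behind each siTet1/Tet2 value, whereas for Lox the estimate was 27952 to 34253 and 8652 to 16421 reads.

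**Figure D1:**
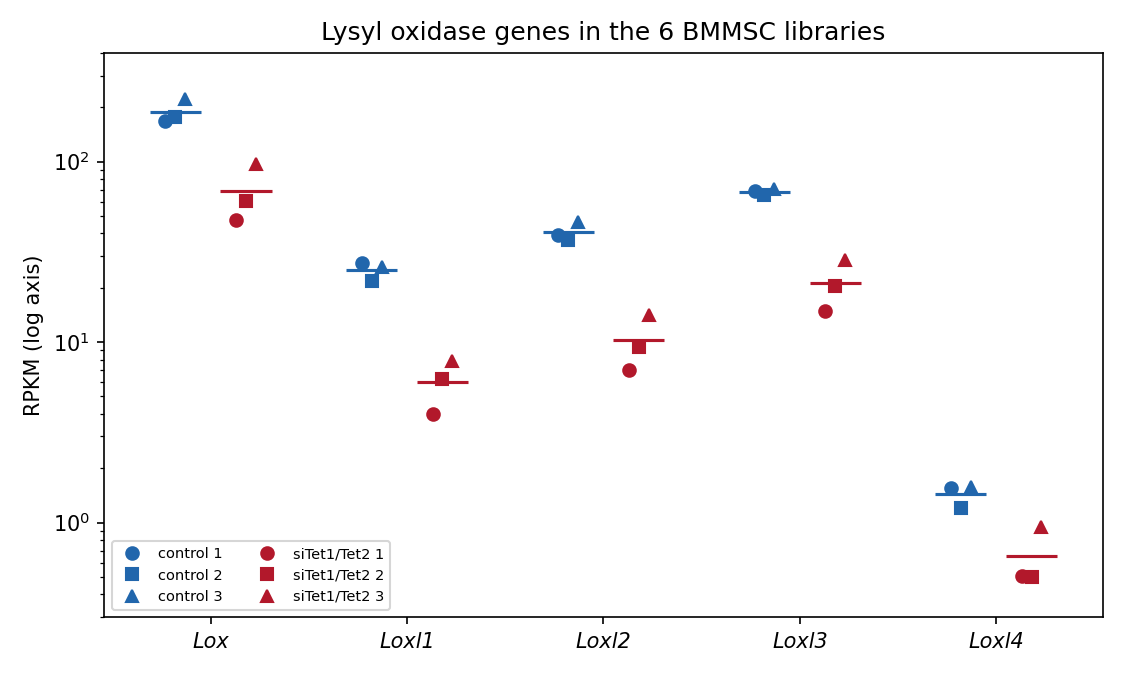
RPKM of the 5 lysyl oxidase genes in each library, on a log axis, with control in blue, siTet1/Tet2 in red, one symbol per replicate number and a line at the group mean. In every gene the 3 siTet1/Tet2 libraries lie below the 3 control libraries, and siTet1/Tet2 replicate 3 is the highest of its group. With libraries scaled to stromal markers the sign of Lox and Loxl4 turned, and the median log2 fold change of all tested genes was 1.34.

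The order of the levels was Lox, Loxl3, Loxl2, Loxl1 and Loxl4 in both groups. In control the range of each gene stood clear of that of the next. In siTet1/Tet2 the ranges of Loxl2 and Loxl1 overlapped, at 7.04 to 14.2 and 3.99 to 7.87 RPKM, and the others did not. The siRNA group was also more variable in relative terms, with coefficients of variation of 32.1% to 39.0% over the 5 genes, against 4.28% to 15.6% in control. Summed over the 5 genes, the family held 304, 302 and 368 RPKM in control and 73.7, 97.4 and 149 RPKM in siTet1/Tet2. The mean sum in siTet1/Tet2 was 32.9% of control, 3.04-fold lower (exact permutation test, two-sided, p = 0.1, the smallest that 3 against 3 libraries can give).

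Whether the members differed from each other in response was examined as the share of each gene in the summed RPKM of the family, a quantity that does not depend on how libraries are scaled to each other. Lox made up 55.1%, 58.7% and 60.7% of the family in the control libraries and 64.1%, 62.5% and 65.5% in the siTet1/Tet2 libraries. Its mean share was 58.1% in control and 64.0% in siTet1/Tet2, 5.87 percentage points higher (SE 1.86), and the groups did not overlap. Loxl2 held 12.9%, 12.2% and 12.5% in control and 9.55%, 9.68% and 9.51% in siTet1/Tet2, a difference of -2.94 points (SE 0.202) between groups that were each very tight. The difference was -2.07 points (SE 0.741) for Loxl1 and 0.165 points (SE 0.0609) for Loxl4, again without overlap. Loxl3 held 21.1% ± 1.65 in control and 20.1% ± 0.905 in siTet1/Tet2 (SD, n = 3), with overlapping groups and a difference of -1.03 points (SE 1.09). Taken within libraries of the same replicate number, the Loxl3 difference was -2.27, -0.633 and -0.181 points (paired SE 0.634), and the share of each of the 5 genes differed in 1 direction in all 3 pairs (exact sign-flip permutation p = 0.25, the smallest that 3 pairs can give). The exact permutation p was 0.1 for Lox, Loxl1, Loxl2 and Loxl4 (adjusted over the 5 genes, 0.125) and 0.4 for Loxl3, so that none could pass a threshold of 0.05 in this design. The 5 shares of a library add up to a fixed total, so they are not independent of each other. How often such shares differ this way in other sets of genes was not computed, so these counts cannot set the family apart.

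**Figure D2:**
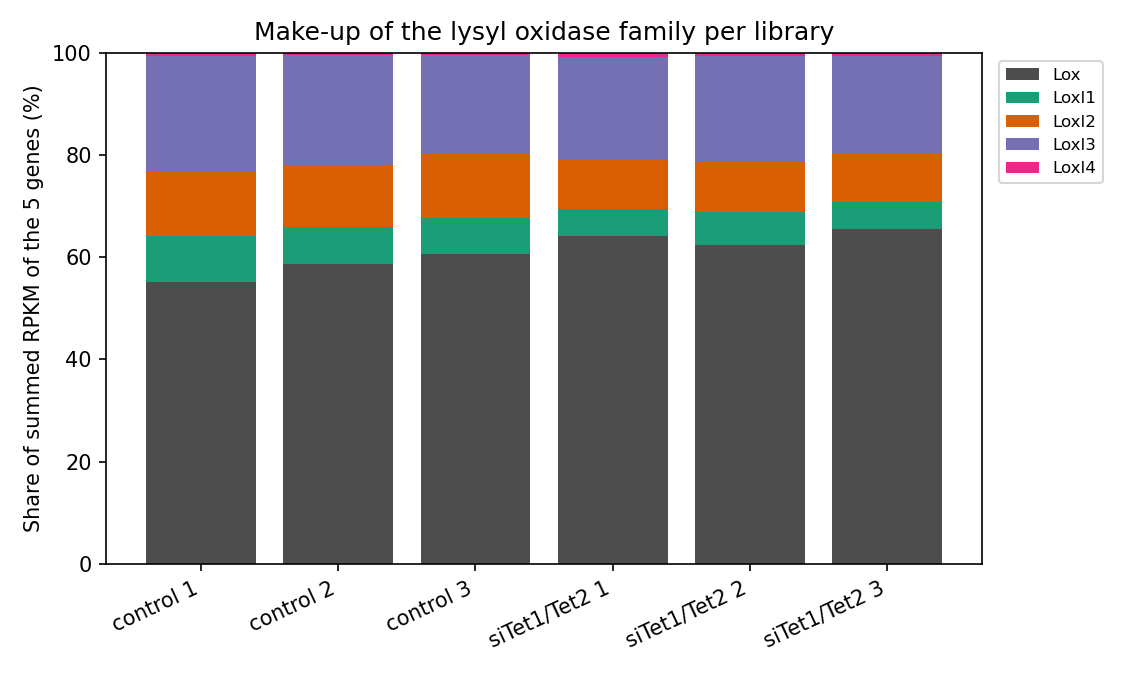
Share of each lysyl oxidase gene in the summed RPKM of the 5 genes (%), stacked to 100 for each of the 6 libraries. The Lox segment takes 55.1% to 60.7% in control and 62.5% to 65.5% in siTet1/Tet2, while the Loxl2 segment narrows from a mean of 12.5% to 9.58%.

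All 10 pairs of members were compared by their log2 ratio within a library, and in 7 of them the groups did not overlap (exact permutation p = 0.1 each, adjusted over the pairs 0.143). Over all pairs of tested genes the groups did not overlap in 57.5%, so the count by itself does not set the family apart. Within same-numbered libraries 9 of the 10 log2 ratios differed in 1 direction in all 3 pairs, Loxl1 to Loxl2 being the exception. The 7 ratios whose groups did not overlap must do so. How often this holds over all pairs of tested genes was not computed, so the 9 of 10 cannot set the family apart either. Lox against Loxl2 gave a tight difference, a ratio 1.44 times higher in siTet1/Tet2 (log2 0.53, SE 0.0638), and Lox against Loxl1 a less tight one (log2 0.58, SE 0.189). The smallest difference was between Loxl1 and Loxl2. Their log2 ratio was -0.69 ± 0.169 in control and -0.75 ± 0.143 in siTet1/Tet2 (SD, n = 3), and the difference of -0.06 had an SE of 0.128, larger than itself (exact permutation p = 0.6). Without control replicate 1 it was 0.04. The log2 ratio of Loxl2 to Loxl3, the most alike of the printed stretches, differed by -0.32 (SE 0.0717) without overlap. Against Loxl4 the log2 ratio differed by -0.89 for Loxl1 (SE 0.216), -0.84 for Loxl2 (SE 0.156) and -0.52 for Loxl3 (SE 0.177), all without overlap, and by -0.31 for Lox (SE 0.178), with overlap.

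The substrates of the family were also lower. Of 10 listed cross-link substrates 9 were tested and all 9 passed lower, beside 29.8% of all tested genes, with a median log2 fold change of -2.43. With libraries scaled to the stromal markers 7 of the 9 passed lower, beside 418 of 13249 tested genes. Col1a1, the main chain of bone collagen, fell from 488 ± 144 to 72.1 ± 28.5 RPKM (SD, n = 3), a log2 fold change of -2.78 (limma, adjusted p = 0.000122). Its partner chain Col1a2 changed by -2.55, and Col3a1, the chain of the type III collagen of soft stroma, by -3.10, to 11.3% of control. The type V chains, which set fibril diameter, changed by -1.80 (Col5a1) and -2.12 (Col5a2), and the cartilage chains Col2a1 and Col11a1 by -1.27 and -2.23. Both cartilage chains were low, and in mean RPKM Col2a1 stood at 30.5% of control and Col11a1 at 9.08%. Col4a1 and Col4a2, the basement membrane chains that Loxl2 acts on, changed by -2.54 and -2.43. Eln, the elastin gene, was listed at 0.001 RPKM in 5 libraries and at 0.016 in siTet1/Tet2 replicate 3, so elastin mRNA was at the bottom of the table in these cells and was not tested.

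Set against 5 fibrillar collagen genes (Col1a1, Col1a2, Col3a1, Col5a1 and Col5a2) in the same library, the summed family stood at ratios of 0.289, 0.301 and 0.236 in control and 0.557, 0.535 and 0.520 in siTet1/Tet2. The siTet1/Tet2 libraries all lay above the control libraries. On the log2 mean the ratio was 1.96 times higher in siTet1/Tet2 (log2 0.97, SE 0.112, exact permutation p = 0.1). Without Col1a1 and Col1a2 the ratio was 1.77 times higher (log2 0.82). The 5 summed collagens stood at 16.6% of the control mean in siTet1/Tet2, while the median log2 fold change of all tested genes was -0.09. A higher ratio to these collagens is thus not particular to the family. How often the groups did not overlap on this measure over all tested genes was not computed.

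The lysyl hydroxylases, which make the hydroxylysines that enter the more stable cross-links, were all tested. All 3 passed lower, beside 29.8% of all tested genes, with unequal changes. The number was 2 after median ratio scaling, where 2927 of 13249 tested genes passed lower. It was also 2 without siTet1/Tet2 replicate 1 (3017 of 13249) and without siTet1/Tet2 replicate 3 (3805 of 13249). It was 0 with libraries scaled to the stromal markers, where 418 of 13249 tested genes passed lower. Plod2, the hydroxylase of the collagen telopeptides, was at 16.9, 18.0 and 21.5 RPKM in control and 4.52, 5.02 and 7.16 RPKM in siTet1/Tet2. It fell to 29.6% of control (log2 fold change -1.60, limma, adjusted p = 9.54376e-05), a percentage that lay between those of Loxl2 and Loxl3. Plod1 remained at 84.1% of control (log2 fold change -0.25) and Plod3 at 71.8% (-0.47). The ratio of the summed lysyl oxidases to the 3 summed hydroxylases was 1.05 to 1.31 in control and 0.355 to 0.688 in siTet1/Tet2, without overlap.

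Of 10 genes of propeptide processing and matrix partners 9 were tested and all 9 passed lower, with a median log2 fold change of -2.04. The share of all tested genes that passed lower was 29.8%. With libraries scaled to the stromal markers 6 of the 9 passed lower, beside 418 of 13249 tested genes. Bmp1, the proteinase that releases active Lox, fell from 42.8 ± 3.75 to 9.02 ± 2.02 RPKM (SD, n = 3), a log2 fold change of -2.14 (limma, adjusted p = 1.61795e-05). The related proteinase Tll1 changed by -0.84, on a scale whose pseudocount of 1 is close to the level of the gene. Its mean was 1.02 RPKM in control and 0.133 RPKM in siTet1/Tet2, 13.0% of control, beside 21.1% for Bmp1. Tll2 stood at 0.016 RPKM or less and was not tested. Pcolce and Pcolce2, which enhance Bmp1 cleavage of procollagen, changed by -2.23 and -0.99. Fn1 (fibronectin) and Postn (periostin), matrix proteins that help Bmp1 act on pro-Lox, changed by -2.40 and -3.10. Fmod, the proteoglycan fibromodulin that binds Lox on collagen, changed by -1.54. The fibulins Efemp2 and Fbln5, which bring Lox and Loxl1 to elastic fibres, changed by -1.52 and -2.04.

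Of 7 listed genes of copper handling, which include chaperones that serve other copper enzymes, 6 were tested, 1 passed lower, 1 passed higher and 4 did not pass, with a median log2 fold change of 0.15. Atp7a, the pump that loads copper into secreted enzymes, was at 17.0 ± 1.82 RPKM in control and 19.4 ± 1.32 RPKM in siTet1/Tet2 (SD, n = 3; log2 fold change 0.19, limma, adjusted p = 0.1301). Atox1, the chaperone that hands copper to Atp7a, passed higher, from 159 ± 23.2 to 265 ± 21.7 RPKM (log2 fold change 0.74, limma, adjusted p = 0.00102). Sco1, a copper chaperone of mitochondrial cytochrome oxidase, passed lower (-0.34, limma, adjusted p = 0.0156). The number that passed higher was 4 after median ratio scaling and after quantile normalization, and the number lower was 0 after quantile normalization and 2 after rescaling libraries to the same sum. Of all tested genes 29.8% passed lower and 14.7% higher on RPKM as deposited. After median ratio scaling 5808 of 13249 tested genes passed, 2927 of them lower, and after quantile normalization 6221, 2622 of them lower. After rescaling to the same sum 5896 passed, 4372 of them lower. With libraries scaled to the stromal markers, all 6 copper genes passed higher. Under that scaling 12030 of 13249 tested genes passed, 418 of them lower, so this count does not set the copper genes apart. Of the other copper amine oxidases, Aoc3 passed lower (-0.64), Aoc2 stood at 0.493 RPKM in control and 0.531 RPKM in siTet1/Tet2 and did not pass, and Aoc1 was not tested.

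Among 12 genes that induce lysyl oxidases or report the activity of those inducers, 8 passed lower and 2 higher, beside 29.8% and 14.7% of all tested genes, and the median of the 12 log2 fold changes was -0.85. With libraries scaled to the stromal markers the counts were 1 lower and 7 higher. Under that scaling 12030 of 13249 tested genes passed, 418 of them lower, so this turn is not particular to these genes. TGF-beta raises Lox transcription in many cells. Of its ligands, Tgfb3 changed by -2.42 and Tgfb2 by -1.21, whereas Tgfb1, at 164 ± 2.61 RPKM in control and 183 ± 1.85 RPKM in siTet1/Tet2 (SD, n = 3), passed slightly higher (0.16, limma, adjusted p = 0.0451). The receptor Tgfbr1 passed higher (0.77) and Tgfbr2 did not pass (0.09), and the signal transducer Smad3 passed lower (-1.29). The TGF-beta target gene Ctgf passed lower (-1.94). Hypoxia also induces Lox, Loxl2 and Loxl4 in many cells. Hif1a passed lower (-0.88), and of the hypoxia-induced genes Vegfa (-1.27) and Bnip3 (-0.35) passed lower while Pgk1 did not pass (-0.11). The number higher was 1 in place of 2 after rescaling to the same sum, and also without any single library other than control replicate 3, where it was 3.

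Loxl2 and Loxl3 also bind the transcription factor Snai1, one of a group that drives the epithelial to mesenchymal transition. Of 5 such factors 4 passed lower (29.8% of all tested genes did). With libraries scaled to the stromal markers 2 passed lower, as did 418 of 13249 tested genes. Snai1 fell from 11.99 ± 1.09 to 2.09 ± 0.713 RPKM (SD, n = 3; log2 fold change -2.09, limma, adjusted p = 4.17226e-05), Snai2 changed by -1.93, Twist1 by -1.54 and Zeb1 by -1.32. Zeb2 stood at 35.3 ± 3.99 RPKM in control and 39.0 ± 3.25 RPKM in siTet1/Tet2 and did not pass (limma, adjusted p = 0.249).

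**Figure D3:**
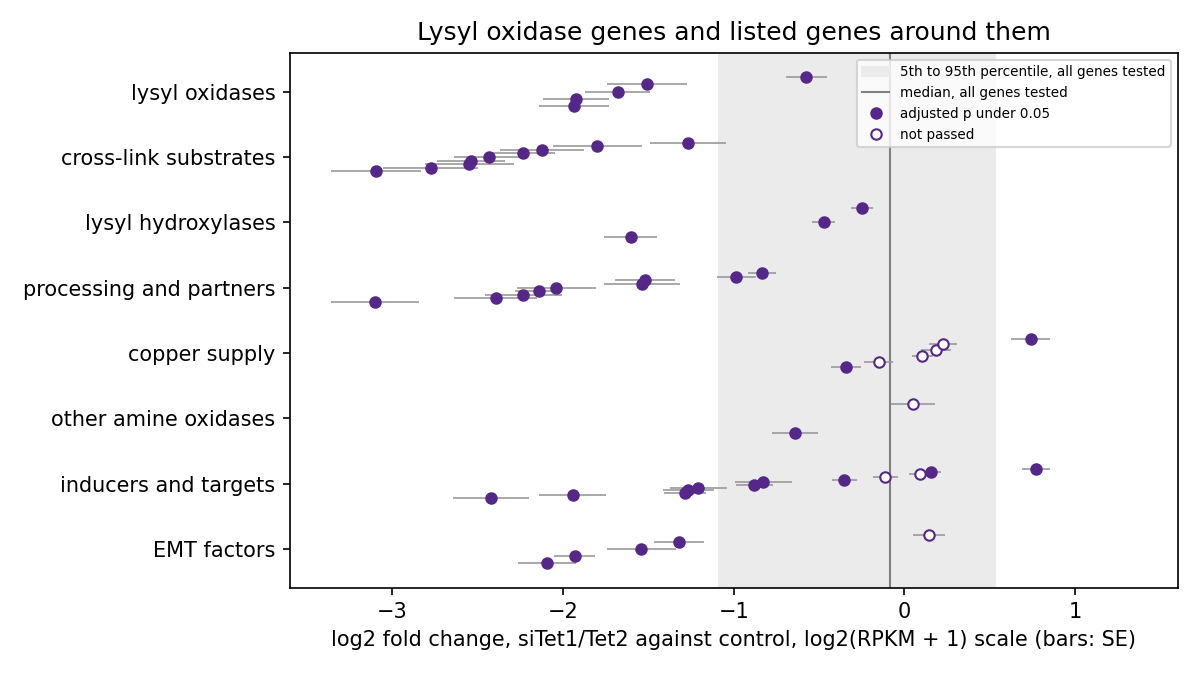
Log2 fold change, siTet1/Tet2 against control on the log2(RPKM + 1) scale, for the 5 lysyl oxidase genes and 7 lists of related genes, with bars for the SE, filled symbols for an adjusted p under 0.05 and open symbols for genes that did not pass. The shaded band holds the 5th to 95th percentile of all tested genes (-1.08 to 0.53). Lox, Loxl1, Loxl2 and Loxl3 lie below it, as do all 9 substrates, while the copper supply genes lie within it except Atox1. The values of Lox and Loxl4 turned sign when libraries were scaled to stromal markers, which moved the median of all tested genes to 1.34.

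The family was also set against the stromal markers, although bulk libraries do not show which cells held its mRNAs. The stromal markers did not change alike: Pdgfra changed by -2.48, Pdgfrb by -2.32, Ly6a by -3.20 and Cxcl12 by -3.00, whereas Eng changed by -0.57 and Vcam1, an adhesion receptor also found on marrow macrophages, rose by 1.67. Against the geometric mean of the 8 markers with a mean of at least 1 RPKM, the summed family stood at 19.2, 22.1 and 22.2 in control and at 19.1, 20.3 and 27.0 in siTet1/Tet2. These groups overlapped, with a log2 difference of 0.05 (SE 0.169, exact permutation p = 0.9). With Vcam1 left out, which was chosen after its value was seen, the ratio was 19.3 to 22.6 in control and 28.0 to 37.3 in siTet1/Tet2, without overlap (log2 0.54, SE 0.151, exact permutation p = 0.1). Per Pdgfra alone the family was 3.32 times higher in siTet1/Tet2, but Pdgfra had the lowest remaining percentage of the tested stromal markers, 9.52% of control. Pdgfrb, Ly6a, Cxcl12 and Dcn were also below the 32.9% of the summed family. Eng (65.8%), Nt5e (70.2%), Mcam (79.0%) and Vcam1 were above it, so the direction of such a ratio depends on the marker. On the log2 mean, the ratio in siTet1/Tet2 was 1.04 times that in control against the 8 markers and 1.45 times against the 7 without Vcam1.

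The single members differed on this measure. Against the 8 markers, Loxl1 was lower (log2 -0.39) and Loxl4 higher (log2 0.50), both without overlap and at an exact permutation p of 0.1. Lox (0.19), Loxl2 (-0.34) and Loxl3 (-0.02) had overlapping groups. Without Vcam1, Lox (0.68), Loxl3 (0.47) and Loxl4 (0.99) were higher without overlap, and Loxl1 (0.10) and Loxl2 (0.15) overlapped. With libraries scaled to the 8 markers, the median log2 fold change of all tested genes was 1.34, above the value of each member. How often the groups did not overlap on this measure over all tested genes was not computed, so these separations cannot set members apart. The 12 macrophage markers stood at a geometric mean of 119% to 123% of the control mean in siTet1/Tet2, all 12 above 0.1 RPKM in mean, and among them Lyz2 changed by 1.36 and Fcgr1 by -1.93.

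**Figure D4:**
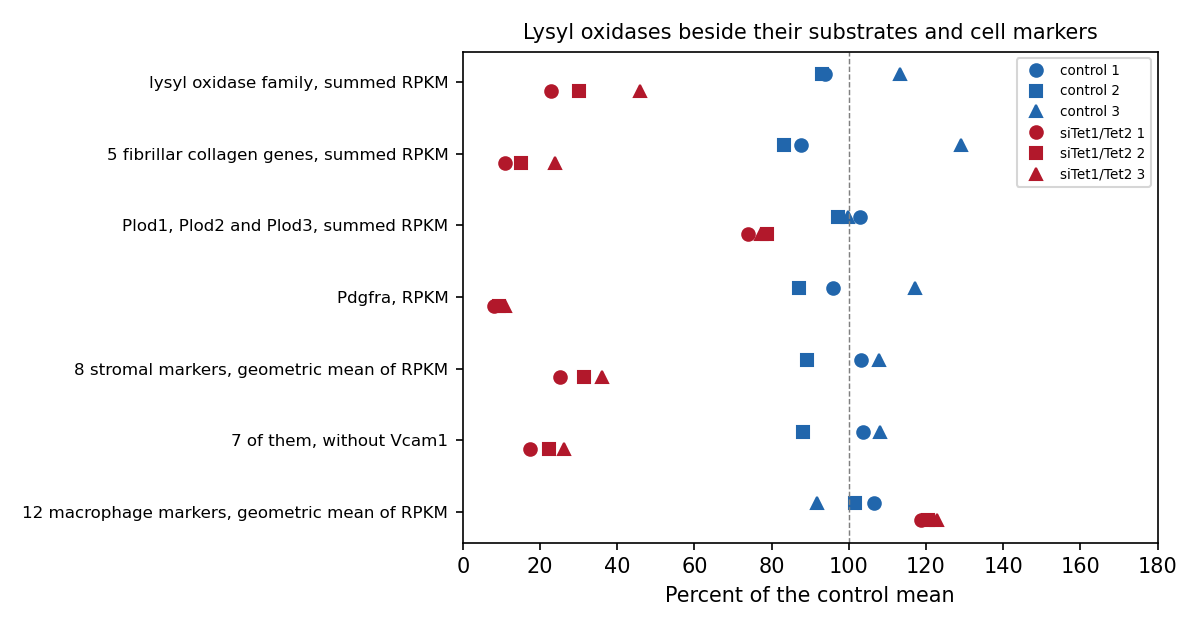
Levels in each library as a percentage of the control mean, for the summed lysyl oxidase family, the summed fibrillar collagens, the summed lysyl hydroxylases, Pdgfra, the geometric means of stromal markers with and without Vcam1, and that of macrophage markers. In siTet1/Tet2 the family stands at 22.7%, 30.0% and 45.9%, the collagens at 11.0% to 23.8%, the 8 stromal markers at 25.1% to 35.9%, the 7 without Vcam1 at 17.3% to 26.3% and the hydroxylases at 73.9% to 78.9%.

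For each member the 3 tested genes with the most similar profile were sought, as the smallest Euclidean distance between gene-centred log2(RPKM + 1) values over the 6 libraries. These distances describe the 6 libraries and mainly carry the difference between the groups. Nearest to Lox were Prrx1, a mesenchymal homeobox gene, at 0.150, then Fmod at 0.179 and Sulf1, a heparan sulfatase, at 0.197. Nearest to Loxl1 were Ehd2 (0.1795), the tropomyosin gene Tpm2 (0.181) and Bgn (0.190), the collagen-binding proteoglycan biglycan. Nearest to Loxl2 were Csf1, the macrophage growth factor, at 0.0887, Dpysl3 at 0.0896 and the cyclin gene Ccnd2 at 0.0960. Among the nearest to Loxl3 were Fads3 (0.169) and Twist1 (0.175), which is also on the list of transition factors above. Nearest to Loxl4 were Rhbdf1 (0.106), Rtkn (0.109) and Brpf3 (0.115), genes with similarly small changes on this scale. Members were not each other's nearest neighbours. For Lox the closest member was Loxl3, at position 37 of the ordered genes, and for Loxl1 it was Loxl2, at position 20.

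Since Tet enzymes act on methylated CpG sites, the promoter was looked at where its sequence was to hand, which was for 1 member of 5. The window of Loxl4 in the RefSeq promoter table (GRCm38.p6, chr19:42612757-42613056, minus strand) runs from 250 bases before the start of the gene to 50 after it. It is shown 5′ to 3′ with each CG in capitals.
Loxl4 promoter: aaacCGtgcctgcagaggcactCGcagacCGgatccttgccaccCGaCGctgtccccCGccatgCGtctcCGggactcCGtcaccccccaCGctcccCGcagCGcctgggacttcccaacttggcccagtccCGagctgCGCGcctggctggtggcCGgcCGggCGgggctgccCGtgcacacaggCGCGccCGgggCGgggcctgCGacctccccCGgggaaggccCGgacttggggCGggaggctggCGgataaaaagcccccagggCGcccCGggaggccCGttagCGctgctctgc
The window held 32 CG and was 75% G and C, with an observed to expected CpG ratio of 0.763. As many CG were found in 9.52% of the 32851 promoters of the table, whose median was 7. Of short motifs searched on both strands, GCGTG, a core of the hypoxia response element, matched 1 time (32.4% of all promoters held a match). ACGTG (held by 19.6%), the RUNX core TGTGGT (16.8%), the E-box CAGGTG bound by Snai1 (20.2%) and the SMAD palindrome GTCTAGAC (0.213%) were not in this window. These are descriptions of letters, and methylation of the promoter was not analysed here.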

How the data were processed

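RNA-seq libraries were made from total RNA of 3 control and 3 siTet1/Tet2 BMMSC samples (NEBNext Ultra RNA kit, paired-end 100-base reads, Illumina HiSeq). The authors trimmed adaptors, mapped reads to GRCm38 and estimated abundance with DNASTAR Lasergene v15.0, and the deposited values are linear RPKM, named FPKM in the methods. Annotation release, strand use and the treatment of reads matching several places are not given in the sources used here. The table has 36915 rows, 18360 of them at the lowest value of 0.001 in all libraries. A further column holds p-values from the authors' own comparison and was not used. Groups were taken from the sample titles.

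Rows with a number in place of a symbol (27) were left out, and of rows sharing a symbol (35 symbols) that of highest mean was used. The 13249 genes averaging 0.1 RPKM or more were tested two-sided on log2(RPKM + 1) with limma 3.58.1 in R 4.3.3 (lmFit, eBayes with trend), with Benjamini-Hochberg adjustment over all of them. This scale understates fold changes of low genes. Ratios and shares within a library were compared with exact permutation tests over the libraries (sign flips for pairs) in Python 3.11.15 (scipy 1.17.1). Depth was taken as the read total that brings low values of genes with 1 transcript closest to whole reads. At that depth 50.1% to 55.2% of such values lay within 0.1 of a whole read, too few to recover counts, so no count test was run. Since that total was picked by this match, the share does not test it. The limma script was tested on simulated data.

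Replicates of a group correlated with r of 0.992 to 0.997 and libraries of different groups with 0.949 to 0.969. Replicate numbers are shared by the groups, and deviations from the group means of same-numbered libraries correlated across genes at 0.149, 0.118 and 0.462, and each pair exceeded 0.1, so an alternative fit used the number as a block. What a number stands for is not labelled. Control replicate 1 with siTet1/Tet2 replicate 2 reached 0.332 and control replicate 2 with siTet1/Tet2 replicate 1 reached 0.204. Each was above the same-numbered value of that control library, so the pairing by number is uncertain.

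The genes named were the 5 members, the Tet genes, the tested genes of the substrate, hydroxylase and partner lists, genes of the other lists that passed, and the 3 nearest profiles of each member. Results for some of these genes are not reported here. A few genes of the other lists that did not pass, the markers and the overlapping genes were named after their values were seen. The members and lists were chosen with earlier results of these data known. Positions are from GENCODE M21, and sequences from its transcripts and from RefSeq. Alternatives included a pseudocount of 0.1 or 0.01, no filter, a filter of 1 RPKM, 3 other scalings, eBayes without trend, the replicate block, summed repeated symbols, the ratio of mean RPKM values as the fold, each library left out, and, added after seeing the data, scaling to stromal markers a stromal mean without Vcam1, and same-numbered libraries as pairs in the shares and ratios.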

Additional observations from a re-analysis of the deposited data

How the results depend on the processing

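Over the alternatives chosen at the start, 332 of 354 values of 32 results kept their direction and their side of the threshold, or moved by less than the spread between replicates or, for counts, by no more than 1.5 times. Without a filter on low values, Lox (-1.51, adjusted p = 0.0556) and Loxl4 (-0.57, adjusted p = 0.0862) no longer passed, the family count was 3 and the count of other amine oxidases 0, with 36845 symbols adjusted over in place of 13249. Leaving out 1 library gave log2 fold changes of -1.79 to -1.27 for Lox, -2.11 to -1.69 for Loxl1, -2.18 to -1.72 for Loxl2, -1.91 to -1.46 for Loxl3 and -0.70 to -0.51 for Loxl4, all passing. The count of altered members was 4 or 5. The replicate block changed no call of a member (Lox, adjusted p = 2.2456e-05) and no list count by over 1.5 times other than copper supply higher, from 1 to 2. Copper supply lower (1) became 2 with the same sum and 0 with quantile normalization, and 0 to 2 without single libraries (2 without control replicate 3, 0 without siTet1/Tet2 replicate 1). Copper supply higher (1) became 4 with median ratio and with quantile scaling, and 1 to 3 without single libraries (2 without control replicate 1, 3 without control replicate 3). Inducers higher (2) became 1 with the same sum and without the trend, and 1 to 3 without single libraries (3 without control replicate 3, 1 without any of the other 5). The family to collagen ratio was 0.82 without Col1a1 and Col1a2, and the Loxl1 to Loxl2 ratio ranged from -0.14 to 0.040 over libraries left out, the latter without control replicate 1. The cause of these shifts was not tested.

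Scaling each library to the stromal markers, added after seeing the data, moved the median change of all genes from -0.09 to 1.34 (log2), against -0.16 with the same sum, 0.01 with median ratio and 0.06 with quantile scaling. With it 12030 of 13249 tested genes passed, 418 of them lower. Lox was then at 0.19 (adjusted p = 0.412), Loxl1 at -0.36 (adjusted p = 0.0690), Loxl2 at -0.32 (adjusted p = 0.113), Loxl3 at -0.019 (adjusted p = 0.928) and Loxl4 at 0.25 (adjusted p = 0.0397). The counts passed lower were 0 for the family (0 altered), the hydroxylases, copper supply and amine oxidases, 1 for inducers, 2 for the transition factors, 7 of 9 for substrates and 6 of 9 for processing and partners, and those higher were 6 for copper supply and 7 for inducers. The family to stromal marker ratio (log2 0.05) was 0.54 without Vcam1 and -0.10 to 0.15 over libraries left out, below 0 without control replicate 1 (-0.02) and without siTet1/Tet2 replicate 3 (-0.10). The depth limits Loxl4 most, and Tet1, Eln and Tll2 lay under the filter of 0.1 RPKM.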
